A study of Homo sapiens with 30 samples.

Results

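The genes described here are 10 regulators of the decision to enter the cell cycle: the CIP/KIP inhibitors CDKN1A, CDKN1B and CDKN1C, the INK4 inhibitors CDKN2B, CDKN2C and CDKN2D, the D-type cyclins CCND1, CCND2 and CCND3, and the transcription factor MYC. They were found by gene symbol, and all 10 were present, with 20 of the 41000 probes on the array. The study treated 5 established human breast cancer cell lines, HCC1954, MDA-MB-231, MDA-MB-361, T-47D and ZR-75-30, with bone morphogenetic protein 7 (BMP7) or with vehicle and collected RNA after 30 min and 1, 3, 6, 12 and 24 h. Each of the 30 line and time combinations was measured on 1 array, with vehicle RNA in the green (Cy3) channel and BMP7 RNA in the red (Cy5) channel. RNA came from 3 pooled cultures, so no array had a replicate, and the spread below is between lines and time points. Dyes were not swapped, so any fixed dye preference of a probe is part of its ratio but cancels when arrays are compared with each other. Per the methods, MDA-MB-231 and T-47D were each kept at a serum concentration of their own, and the other lines in their recommended medium.

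D-type cyclins bind and activate the cyclin-dependent kinases that phosphorylate the retinoblastoma protein and release E2F factors, which starts DNA replication. INK4 proteins block the kinase partners of the D-type cyclins, and CIP/KIP proteins act on a wider set of cyclin and kinase complexes. MYC drives growth genes and is known to oppose several of these inhibitors. In epithelial cells, ligands of the TGF-beta family are known to lower MYC and to raise CDKN1A and CDKN2B through SMAD proteins. BMP7 signals through SMAD proteins of the BMP branch, whose best known immediate targets are the ID genes.

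The labelled lines carried their known markers. ERBB2, a growth factor receptor gene amplified in some breast cancers, had mean vehicle signals on the log2 scale of 17.3 in HCC1954, 17.2 in MDA-MB-361 and 16.3 in ZR-75-30, against 13.2 in T-47D and 11.7 in MDA-MB-231. ESR1, the oestrogen receptor, was not well above background on any MDA-MB-231 array, and the mesenchymal filament gene VIM was highest in that line, at 16.9. GATA3, a luminal transcription factor, ran from 7.41 in MDA-MB-231 to 13.1 in ZR-75-30. Between 53.8% and 68.3% of probes were well above background in both channels of an array. In 3 arrays, MDA-MB-231 at 6 h, T-47D at 3 h and T-47D at 24 h, the vehicle profile correlated less with the other arrays of its own line (median Pearson r 0.937, 0.935 and 0.946) than in the others, where it was 0.962 or more. ZR-75-30 at 6 h held 4044 probes changed at least 2-fold, the highest number, while the median array held 543. The MYC calls, the MYC range between lines and the CDKN1A vehicle range are also given without arrays of this kind.

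For each gene the probe with the highest median vehicle signal was taken as its leading probe. Of the 10 leading probes, 9 were well above background in vehicle on at least 24 arrays. The exception was CCND2, whose leading probe was above background on 0 of 30 arrays. On the hg18 build, as the array files give it, the leading probe of CDKN1A lies at chr6:36762684-36762743, that of CDKN1B at chr12:12766207-12766266, that of CDKN2B at chr9:21994945-21995004 and that of CCND1 at chr11:69177414-69177473. No exon annotation of that build was used here. The leading probes of CDKN1A, CDKN1B, CCND1 and MYC were printed 10 times on each array. The SD of the log2 ratio over these spots had medians of 0.05 for each of the 4 probes and reached 0.19 at most, for MYC.

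RefSeq promoter windows were found for 6 of the 10 genes. Those of CDKN2B, the member with the widest spread between lines, and CDKN1A, the inhibitor with the highest mean BMP7 ratio, are shown here for the 250 bases before the annotated start (GRCh38.p14). The lines hold chr9:22009306-22009555 on the minus strand and chr6:36678464-36678713 on the plus strand, and capitals mark GGAGCC and its reverse complement GGCTCC, letters that BMP-branch SMAD proteins are known to bind.
CDKN2B promoter: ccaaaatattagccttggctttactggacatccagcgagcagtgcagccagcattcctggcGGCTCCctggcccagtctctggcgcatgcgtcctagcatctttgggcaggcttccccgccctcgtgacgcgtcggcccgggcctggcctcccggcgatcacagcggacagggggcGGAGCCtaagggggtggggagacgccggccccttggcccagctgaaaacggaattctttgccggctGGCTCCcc
CDKN1A promoter: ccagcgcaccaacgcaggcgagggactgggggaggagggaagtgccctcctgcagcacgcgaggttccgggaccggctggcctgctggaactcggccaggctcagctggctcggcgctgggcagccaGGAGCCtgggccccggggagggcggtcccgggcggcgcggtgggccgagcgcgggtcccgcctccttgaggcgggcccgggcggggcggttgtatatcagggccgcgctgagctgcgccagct
The CDKN2B window held 3 matches on either strand and the CDKN1A window held 1. Of 35116 such windows in the table, 30.6% held at least 1 match, so its presence is common. The share of windows with 3 matches was not counted. Windows of CDKN1B, CDKN2C and CDKN2D also held a match, while those of CCND3 did not. Neither the CDKN2B nor the CDKN1A window held GGCGCC (16.4% of all windows), the SMAD element CAGAC or its reverse complement GTCTG (38.0%), or the MYC element CACGTG (6.34%).

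MYC was the member whose BMP7 ratio moved with time. At 30 min and 1 h its log2 ratio of BMP7 to vehicle ran from -0.40 to 0.77 with a median of -0.10 over 10 arrays, and at 3 to 24 h it ran from -1.13 to 0.42 with a median of -0.35 over 20 arrays. It was below 0 on 6 of the 10 early arrays and on 18 of the 20 later ones, so the windows overlapped but were shifted. Across all lines the later ratio was lower by 0.42 on the log2 scale (estimate -0.42, SE 0.10, limma with cell line as a block, adjusted p = 0.0349). In this comparison 2.44% of 40997 probes passed the threshold of 0.05 and 1.01% passed it downward.

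The mean MYC ratio at 3 to 24 h lay below that of the first hour in all 5 lines. In HCC1954 MYC stood at 0.55 and -0.08 at 30 min and 1 h and then at -0.44, -0.34, -0.17 and -0.07 at 3, 6, 12 and 24 h. In MDA-MB-231 the values were -0.17 and -0.12, followed by -0.36, -0.19, -0.60 and -0.91. In MDA-MB-361 they were 0.09 and -0.40, followed by -0.52, -0.27, -0.37 and -0.34. These lines ended below vehicle, HCC1954 only slightly, at -0.07. In HCC1954 and MDA-MB-361 the 1 h value already lay inside the later range. The high HCC1954 value at 30 min came from the second of 2 scan batches, and the other HCC1954 arrays from the first. In T-47D the early values of 0.13 and 0.77 were followed by 0.01, -0.12, -0.26 and 0.42, so this line lost an early excess and its mean at 3 to 24 h was 0.01. In ZR-75-30 the values were -0.21 and -0.13, followed by -0.63, -1.13, -0.78 and -0.46, and their mean at 3 to 24 h, -0.75, was the lowest of the 5 lines, although MDA-MB-231 was lower at 24 h. The later minus the earlier mean was -0.58 in ZR-75-30, -0.49 in HCC1954, -0.44 in T-47D, -0.37 in MDA-MB-231 and -0.22 in MDA-MB-361.

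The MYC call was close to the threshold. It was lost when HCC1954 (adjusted p = 0.0660), MDA-MB-231 (adjusted p = 0.0594), T-47D (adjusted p = 0.205) or ZR-75-30 (adjusted p = 0.260) was left out of the limma fit, while the estimate stayed between -0.47 and -0.38. Over all probes these fits called 250 of 40997, 56 of 40999, 4 of 40995 and 3 of 40999, in the same order. The main fit called 1002 of 40997, so calls were lost in general. With the scan batch as a further term the estimate was -0.41 (limma, adjusted p = 0.0502), and within the first of the 2 scan batches it was -0.35 (limma, adjusted p = 0.252). These settings called 67 of 40997 and 3 of 40996 probes. The second batch held an early and a later array in only 2 lines, where MYC at 6 h minus 30 min was -0.03 in MDA-MB-231 and -0.92 in ZR-75-30. Without MDA-MB-231 at 6 h and T-47D at 3 and 24 h the estimate was -0.47 (limma, adjusted p = 0.0280), and without ZR-75-30 at 6 h it was -0.39 (limma, adjusted p = 0.0343). The other MYC probes did not show the drop. For A_24_P178011 the later minus the earlier ratio was 0.06 (SE 0.08, limma, adjusted p = 0.735), and over 29 arrays its ratio ran opposite to that of the leading probe (Pearson r -0.58). For A_24_P38363, above background in vehicle on 6 of 30 arrays, the difference was -0.14 (SE 0.14, limma, adjusted p = 0.686).

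**Figure D1:**
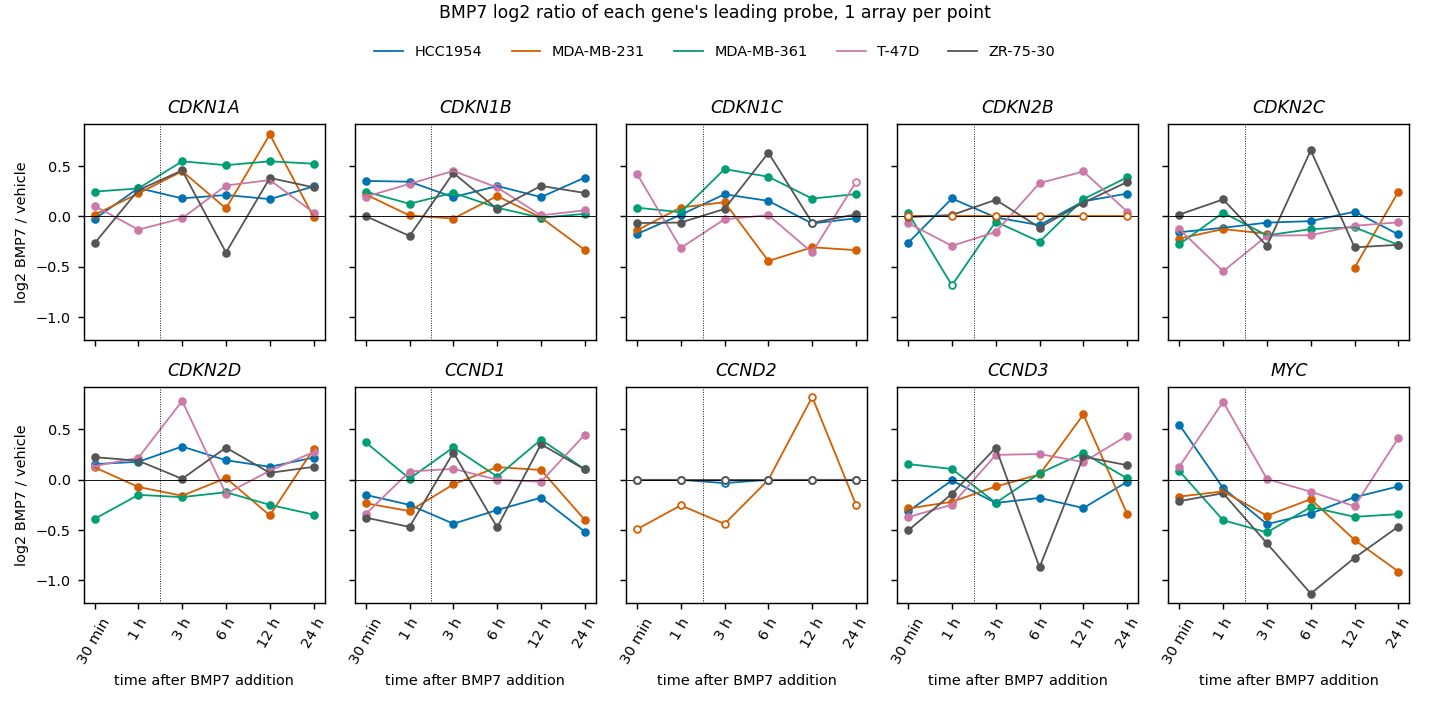
The log2 ratio of BMP7 to vehicle (vertical axis) for the leading probe of each gene at 6 time points (horizontal axis), with 1 line per cell line and 1 array per point; open points had a channel that was not clearly above background, and the dotted line parts 1 h from 3 h. MYC lies below 0 on 18 of the 20 arrays at 3 to 24 h, CCND2 is at background throughout, and ZR-75-30 at 6 h departs from its neighbouring times for CCND1, CCND3, CDKN1A, CDKN1C and CDKN2C.

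CDKN1A and CDKN1B, which bind and restrain cyclin and kinase complexes, had mean ratios above 0 in all 5 lines, but neither passed the threshold. CDKN1A had line means over 6 times of 0.44 in MDA-MB-361, 0.26 in MDA-MB-231, 0.19 in HCC1954, 0.13 in ZR-75-30 and 0.11 in T-47D. Its mean over lines was 0.23 (SE 0.06, 95% interval 0.08 to 0.37, limma, adjusted p = 0.177). In this comparison 0.00976% of 41000 probes were called, 4 in all, and 6324 had an unadjusted p under 0.05. In MDA-MB-361 all 6 CDKN1A ratios lay between 0.25 and 0.55, whereas in ZR-75-30 they ran from -0.36 to 0.46. The difference between 3 to 24 h and the first hour was 0.19 (SE 0.09, limma, adjusted p = 0.230), with the same sign in all 5 lines. The dimmer CDKN1A probe A_24_P89457 followed the leading one across arrays (Pearson r 0.68 over 30 arrays), yet at 3 to 24 h it lay below 0 in HCC1954 (-0.33), MDA-MB-231 (-0.26) and ZR-75-30 (-0.41), so the sign of CDKN1A in these lines depended on the probe.

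CDKN1B stood at a mean of 0.16 (SE 0.05, 95% interval 0.04 to 0.27, limma, adjusted p = 0.216). Its ratio was above 0 on all 6 arrays of HCC1954 (0.19 to 0.39) and of T-47D (0.01 to 0.45), and on 3 of 6 in MDA-MB-231. Its other probe, A_23_P204696, had a mean of -0.19 (limma, adjusted p = 0.180), so the CDKN1B probes disagreed in sign. A dye preference of either probe was not tested. CDKN1C, the imprinted member of the family, had a mean of 0.04 over lines (SE 0.06, limma, adjusted p = 0.806). It was above 0 on all 6 MDA-MB-361 arrays, from 0.04 to 0.47, and on 2 of 6 in MDA-MB-231, where it ran from -0.44 to 0.14.

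Among the INK4 inhibitors, which act on the kinase partners of the D-type cyclins, BMP7 ratios were small. CDKN2B, the family member known as a target of TGF-beta signalling, had a mean of 0.02 (SE 0.03, limma, adjusted p = 0.758) and was listed at 0 on all 6 MDA-MB-231 arrays, where it was at background, so that line enters the CDKN2B fits as 0. In the other 4 lines its ratio at 3 to 24 h exceeded that in the first hour by 0.39 in MDA-MB-361, 0.35 in T-47D, 0.13 in ZR-75-30 and 0.11 in HCC1954, and over all lines the difference was 0.20 (SE 0.08, limma, adjusted p = 0.198). The other CDKN2B probe, A_23_P216812, above background in vehicle on 13 of 30 arrays, had a later minus earlier difference of -0.13 (SE 0.17, limma, adjusted p = 0.771), with -0.97 in MDA-MB-361 and -0.01 in HCC1954, and its ratios ran weakly opposite to those of the leading probe (Pearson r -0.31 over 30 arrays). At 24 h the leading CDKN2B probe stood at 0.39 in MDA-MB-361, 0.34 in ZR-75-30, 0.23 in HCC1954 and 0.05 in T-47D. CDKN2C lay below 0 on 23 of 29 arrays, with a mean over lines of -0.12 (SE 0.03, limma, adjusted p = 0.206). CDKN2D lay above 0 on all 6 arrays of HCC1954 (0.13 to 0.33) and of ZR-75-30 (0.01 to 0.32) and below 0 on all 6 of MDA-MB-361 (-0.39 to -0.12). Its mean over lines was 0.07 (SE 0.08, limma, adjusted p = 0.745).

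The D-type cyclins were mixed as well. CCND1, amplified or overexpressed in many breast tumours, was below vehicle on all 6 HCC1954 arrays, from -0.52 to -0.15, and above it on all 6 MDA-MB-361 arrays, from 0.01 to 0.40. At 3 to 24 h all 3 CCND1 probes placed HCC1954 lowest, at -0.36, -0.23 and -0.29, and MDA-MB-361 highest, at 0.21, 0.33 and 0.33. Over lines the mean was -0.06 (SE 0.08, limma, adjusted p = 0.784). For the CCND1 probe A_24_P193011 (chr11:69167820-69167879) the ratio at 3 to 24 h minus that in the first hour was 0.31 (SE 0.09, limma, adjusted p = 0.0618), with the same sign in all 5 lines. This difference was 0.17 for the leading CCND1 probe (SE 0.09, limma, adjusted p = 0.346) and 0.20 for A_24_P124550 (SE 0.08, limma, adjusted p = 0.184). Both lay below 0 in HCC1954, at -0.16 and -0.14, and above 0 in the other lines. A_24_P193011 passed when dim spots were removed (0.31, limma, adjusted p = 0.0331) and without the 3 arrays that stand apart (0.31, limma, adjusted p = 0.0466). It passed in no other setting tried. Removing dim spots took away none of the 30 values of this probe, and only the set of probes tested with it changed. That setting called 2164 of 25536 probes, and leaving out the 3 arrays called 1464 of 40996. CCND3 had a mean of -0.04 (SE 0.05, limma, adjusted p = 0.747), was below 0 on all 6 HCC1954 arrays and reached -0.87 in ZR-75-30 at 6 h. CCND2 was at background in vehicle in 4 lines, and its probes A_24_P270235 and A_24_P278747 were above background in vehicle on 0 of 30 arrays. Its probe A_23_P139881 was above background in vehicle on all 6 MDA-MB-231 arrays, where the ratios were -0.07, -0.35, -0.51, 0.17, -1.11 and -0.09 from 30 min to 24 h.

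Changes of 2-fold or more on a single array were rare among the members. They numbered 6 among 598 probe values, 1.00%, whereas 1.87% of all probe values reached this size. Only 2 of the 6 were well above background in both channels, among 457 such member values, and over all probes 0.798% of such values reached 2-fold. These were MYC in ZR-75-30 at 6 h, at -1.13, and CCND2 probe A_23_P139881 in MDA-MB-231 at 12 h, at -1.11. The array of ZR-75-30 at 6 h is the one with the most changed probes overall.

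Differences between lines in the BMP7 ratio were tested over the 20 arrays at 3 to 24 h with time as a block. In this comparison 5.37% of 40989 probes were called, and 9855 had an unadjusted p under 0.05 in limma. Of the 20 member probes 0 were called and 9 had an unadjusted p under 0.05. Among the leading probes the widest range of line means was that of MYC, 0.76 on the log2 scale between T-47D (0.01) and ZR-75-30 (-0.75), with HCC1954 at -0.25, MDA-MB-361 at -0.38 and MDA-MB-231 at -0.51 between them (limma, adjusted p = 0.102). Leaving out MDA-MB-231 (limma, adjusted p = 0.0308) or the dim spots (limma, adjusted p = 0.0429) brought the MYC range past the threshold. The range itself stayed at 0.76 in both settings, and no value of this MYC probe was dim. Over all probes these settings called 3274 of 40998 and 2970 of 23222. Without ZR-75-30 at 6 h the MYC range was 0.62 (limma, adjusted p = 0.147), and without MDA-MB-231 at 6 h and T-47D at 3 and 24 h it was 0.60 (limma, adjusted p = 0.182). The dimmer CDKN2B probe A_23_P216812 had a range of 0.84, from -0.35 in MDA-MB-361 to 0.49 in T-47D (limma, adjusted p = 0.198), with 1 and 3 of 6 vehicle values above background in these lines. The dimmer CCND3 probe A_23_P214464 had a range of 0.56, from -0.35 in HCC1954 to 0.21 in ZR-75-30 (limma, adjusted p = 0.0632), and passed with the scan batch as a further term (0.63, limma, adjusted p = 0.0298) and within the first scan batch (0.69, limma, adjusted p = 0.0213). The leading CCND3 probe had a range of 0.46 (limma, adjusted p = 0.622). It ran from -0.18 in HCC1954 to 0.28 in T-47D, with ZR-75-30 at -0.04. Ranges of 0.57 for CCND1 (limma, adjusted p = 0.173) and 0.55 for CDKN1C (limma, adjusted p = 0.167) did not pass. The median range over all probes was 0.38 and that of the 10 leading probes was 0.41.

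According to the background the study gives, BMP7 speeds the growth of cultured MDA-MB-231 cells and slows that of several other breast cancer lines, which it does not name, while in a mouse xenograft BMP7 slowed MDA-MB-231 tumours. The question that can be put to these arrays is therefore whether MDA-MB-231 differed from the other 4 lines, and it compares 1 line with 4. In this comparison 0.00732% of 40989 probes were called, 3 in all, and 2794 had an unadjusted p under 0.05 in limma. Of the 20 member probes 0 were called and 3 had an unadjusted p under 0.05. CDKN1C was lower in MDA-MB-231 than the mean of the others by 0.37 (difference -0.37, 95% interval -0.63 to -0.11, limma, adjusted p = 0.483). At 3 to 24 h its ratio averaged -0.24 in MDA-MB-231, -0.01 in T-47D, 0.07 in HCC1954, 0.17 in ZR-75-30 and 0.32 in MDA-MB-361. For CDKN1B the difference was -0.24 (95% interval -0.43 to -0.06, limma, adjusted p = 0.535), with line means of -0.04 in MDA-MB-231 and 0.08 to 0.27 in the others. The other CDKN1B probe, A_23_P204696, had the opposite sign here, at 0.18 (95% interval -0.17 to 0.54, limma, adjusted p = 0.951). The remaining probe with an unadjusted p under 0.05 was the CCND2 probe A_23_P139881 (-0.35, 95% interval -0.67 to -0.03, limma, adjusted p = 0.679), which is above background in MDA-MB-231 alone.

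The other members gave intervals that reach across 0. For MYC the difference was -0.17 (95% interval -0.48 to 0.14), and it turned to 0.39 with normexp background correction and median scaling (limma, adjusted p = 0.114). For CDKN1A it was 0.06 (95% interval -0.23 to 0.34), for CCND1 -0.07 (-0.35 to 0.22), for CCND3 0.05 (-0.34 to 0.44), for CDKN2C 0.02 (-0.35 to 0.39) and for CDKN2D -0.14 (-0.42 to 0.13). An interval of this width does not show that the lines responded alike. MDA-MB-231 also differs from the other lines in serum, and with 1 line the growth response and every other property of that line cannot be told apart.

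**Figure D2:**
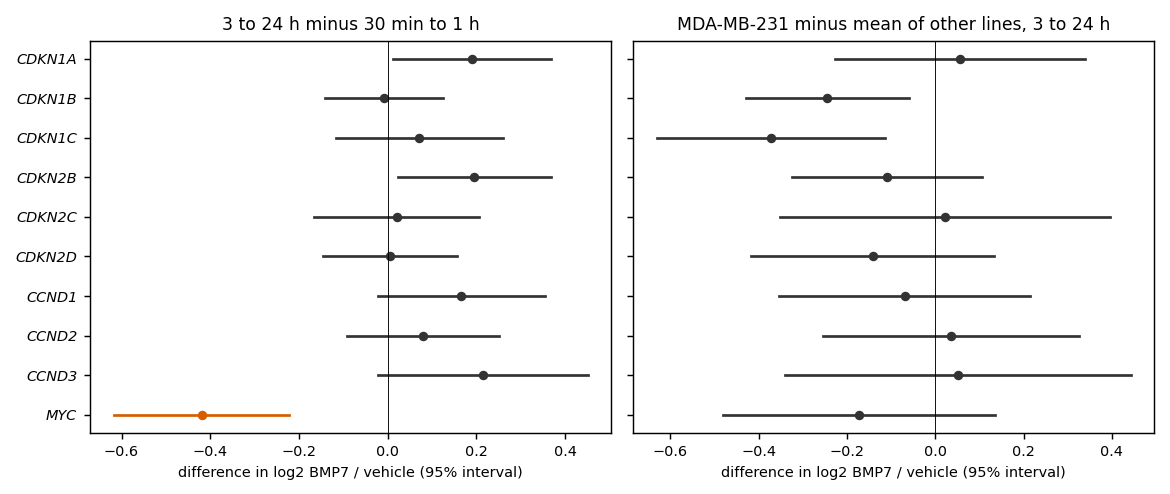
Differences in log2 BMP7/vehicle (horizontal axis) for each leading probe, as points with 95% intervals from limma, for the later against the early time points (left) and for MDA-MB-231 against the mean of the other lines (right); orange marks an adjusted p under 0.05. Only MYC on the left passes, at -0.42, and the intervals of CDKN1C and CDKN1B on the right lie below 0 without passing after adjustment.

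In vehicle-treated cells the lines differed at most members. The vehicle level differed between lines for 18 of the 20 member probes (9 of the 10 leading ones, CCND2 at background among them), while 73.2% of all 40997 probes were called in this comparison, so a difference between lines is the usual case on these arrays. Of 100 pairs of lines over the 10 leading probes, 64 passed within their pair, against 46.6% of the tests over all probes and pairs. The 64 include 4 pairs of CCND2, which was at background. The median range between line means was 2.11 on the log2 scale for the leading probes and 1.44 for all probes. Leading probes were chosen for high signal, whereas all probes include those at background, so these shares are not like for like. Among probes with a vehicle signal well above background, 22203 of 24305 differed between lines, with a median range of 1.55. Values below are means of log2 vehicle signal with the SD over the 6 arrays of a line, and they are compared only within a probe.

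CDKN2B gave the widest range. It stood at 10.15 ± 0.30 in HCC1954, 8.49 ± 0.34 in ZR-75-30, 8.21 ± 0.55 in T-47D and 5.45 ± 0.17 in MDA-MB-361, and was not well above background on any of the 6 MDA-MB-231 arrays, where the signal was 2.39 ± 0.11. The lines did not overlap except for ZR-75-30 and T-47D, which did not differ beyond their spread (difference 0.28, SE 0.17, limma, adjusted p = 0.196). Taking the lowest signal well above background on each MDA-MB-231 array as a limit, CDKN2B was at least 56.7-fold higher in HCC1954, at least 17.9-fold in ZR-75-30, at least 14.8-fold in T-47D and at least 2.17-fold in MDA-MB-361 (limma over lines, adjusted p = 6.65e-21). The other CDKN2B probe was also above background on 0 of 6 MDA-MB-231 arrays.

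The neighbours of CDKN2B on chromosome 9 were looked at after this was seen. From PTPLAD2 to DMRTA1, in hg18 order, the stretch around it held 28 probes. Of these, 8 were above background on 5 or 6 arrays of each of the other lines, and 5 of the 8 were above background on no MDA-MB-231 array. Over all probes with such a level in the other 4 lines, 254 of 20986, or 1.21%, were above background on no MDA-MB-231 array. The 5 probes belonged to KLHL9, an adaptor of a ubiquitin ligase, MTAP, an enzyme of methionine salvage, of which 2 of 3 probes counted, CDKN2A, which encodes an INK4 inhibitor next to CDKN2B, and CDKN2B itself. CDKN2B had prompted this look, so its own place among the 5 was fixed beforehand. Here 1 MTAP probe is counted through 5 arrays in ZR-75-30. Against the same limit KLHL9 was at least 384-fold higher in T-47D than in MDA-MB-231 and CDKN2A was at least 167-fold higher in HCC1954. The exceptions among the 8 were another CDKN2A probe, which was above background on all 6 MDA-MB-231 arrays at a median of 7.72 against 10.9 to 13.7 in the other lines, and the unnamed probes A_24_P41593 and A_32_P152696, which were above background on all 30 arrays. Outside the 8, IFNA4 was above background on 4 of 6 MDA-MB-231 arrays and C9orf53, beside CDKN2A, on 2 of 5. Copy number was not measured on these arrays.

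**Figure D3:**
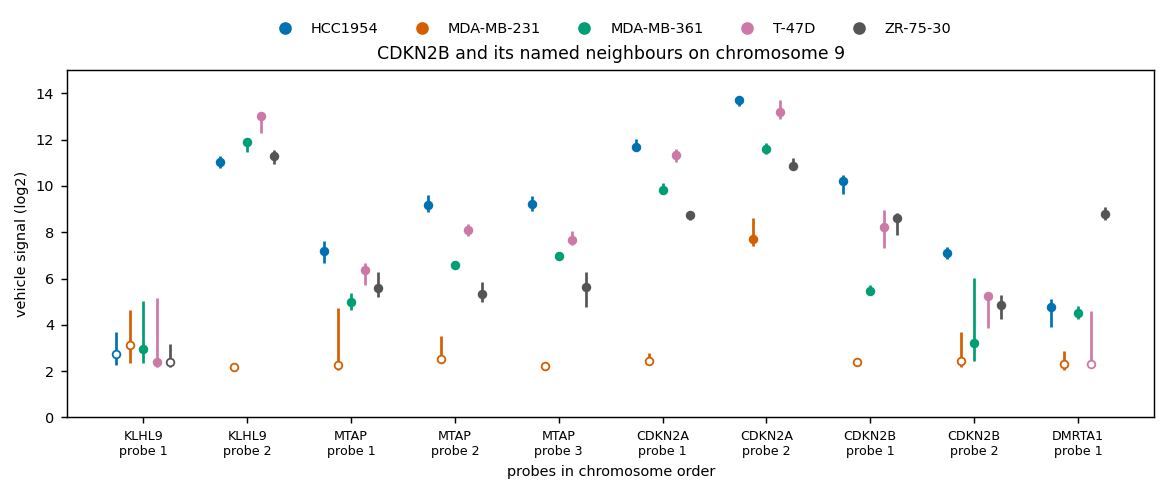
Median vehicle signal (log2, vertical axis) with the range over 6 arrays as a bar for the probes of KLHL9, MTAP, CDKN2A, CDKN2B and DMRTA1 in chromosome order (horizontal axis), by cell line; open points were above background on no array of that line. MDA-MB-231 is open for the probes of MTAP and CDKN2B, for DMRTA1, for both KLHL9 probes and for 1 of 2 CDKN2A probes, while DMRTA1 is open in T-47D too and the first KLHL9 probe in HCC1954 and ZR-75-30.

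The other inhibitors varied within a measurable range. CDKN1B was highest in MDA-MB-361 (11.12 ± 0.22) and lowest in HCC1954 (8.51 ± 0.21), with ZR-75-30 at 10.75 ± 0.20, MDA-MB-231 at 10.11 ± 0.46 and T-47D at 9.78 ± 0.28. Its neighbours MDA-MB-361 and ZR-75-30 (limma, adjusted p = 0.0527) and MDA-MB-231 and T-47D (limma, adjusted p = 0.0791) did not differ beyond the threshold. The dimmer CDKN1B probe A_23_P204696, above background on all 30 arrays, also placed HCC1954 lowest (5.94) but ZR-75-30 highest (7.86). On that probe MDA-MB-361, at 7.35, lay below ZR-75-30 (limma, adjusted p = 0.0414) and beside MDA-MB-231, at 7.42. CDKN1C was highest in MDA-MB-231 (9.79 ± 0.79), followed by MDA-MB-361 (8.43 ± 0.20) and HCC1954 (7.79 ± 0.32), and lowest in T-47D (5.88 ± 0.83) and ZR-75-30 (5.81 ± 0.42). T-47D and ZR-75-30 could not be ordered (limma, adjusted p = 0.897), nor could MDA-MB-361 and HCC1954 (limma, adjusted p = 0.129). CDKN2C was highest in T-47D (13.28 ± 0.25), which did not differ from MDA-MB-231 (limma, adjusted p = 0.120), and lowest in ZR-75-30 (11.44 ± 0.16) and HCC1954 (11.65 ± 0.38), which did not differ from each other (limma, adjusted p = 0.319). CDKN2D ran from 14.15 ± 0.26 in MDA-MB-231 to 12.51 ± 0.30 in ZR-75-30.

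CDKN1A was the leading probe whose vehicle level did not differ between lines, with means from 11.29 ± 0.32 in T-47D to 11.88 ± 0.36 in ZR-75-30 (range 0.59, limma, adjusted p = 0.438). For this probe MDA-MB-231 at 6 h gave 14.61, while the other 5 arrays of that line gave 11.14 to 11.50. The dimmer CDKN1A probe A_24_P89457 was below background on that array, which held 2741 spots flagged as outliers, against a median of 174. Without the 3 arrays that stand apart the range of the leading probe was 0.72 and passed (limma, adjusted p = 0.00963), as it did without MDA-MB-231 (0.59, limma, adjusted p = 0.0277). A_24_P89457, above background on 29 of 30 arrays, did differ between lines (range 1.21, limma, adjusted p = 0.0127). Its means ran from 6.51 in MDA-MB-231, with 5 of 6 arrays above background, to 7.72 in ZR-75-30.

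The D-type cyclins and MYC each had their own order of lines. CCND1 was highest in HCC1954 (13.25 ± 0.44), followed by ZR-75-30 (12.47 ± 0.35), MDA-MB-231 (12.21 ± 0.21) and MDA-MB-361 (11.82 ± 0.33), and lowest in T-47D (10.88 ± 0.48). MDA-MB-231 differed neither from ZR-75-30 (limma, adjusted p = 0.356) nor from MDA-MB-361 (limma, adjusted p = 0.144). CCND3 was highest in MDA-MB-231 (11.55 ± 0.43), with the other lines between 10.12 and 10.73. CCND2 probe A_23_P139881 was above background in vehicle in MDA-MB-231 alone. By its mean there, 5.18, it was at least 1.92-fold higher than in HCC1954 and at least 1.42-fold higher than in T-47D. That mean includes 1 array at 7.51, and the median was 4.84, against limits of 4.24 in HCC1954 and 4.67 in T-47D. Both bounds therefore lean on that array. 

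MYC was highest in HCC1954 (14.20 ± 0.67) and MDA-MB-231 (13.63 ± 0.49), which could not be ordered (limma, adjusted p = 0.378), followed by ZR-75-30 (12.85 ± 0.51), T-47D (12.20 ± 0.73) and MDA-MB-361 (9.98 ± 1.42). The MYC probe A_24_P178011 did not differ between lines (range 1.04, limma, adjusted p = 0.275) and was highest in T-47D (7.98). Over 29 arrays its vehicle signal ran weakly opposite to that of the leading probe (Pearson r -0.34). The dim A_24_P38363, above background on 6 of 30 arrays, was also highest in HCC1954 (4.98). The order of lines for MYC therefore depended on the probe. In MDA-MB-361 the vehicle signal of the leading MYC probe itself moved between arrays, from 11.02 at 30 min and 11.65 at 1 h to 8.92 at 3 h and 7.93 at 6 h, and back to 9.58 at 12 h and 10.77 at 24 h. The BMP7 ratio was taken against this moving level. Across lines the vehicle level of MYC at 12 to 24 h differed from that in the first hour by -0.21 (SE 0.25, limma, adjusted p = 0.830), and 0 of the 20 member probes passed in that comparison, in which 0.00732% of 40999 probes did and 3865 had an unadjusted p under 0.05. The lowest unadjusted p of a leading probe was that of CDKN2B, which was higher at 12 to 24 h by 0.38 (SE 0.12, limma, adjusted p = 0.339), by 0.67 in T-47D, 0.54 in HCC1954, 0.43 in ZR-75-30 and 0.22 in MDA-MB-361, with MDA-MB-231 at background.

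**Figure D4:**
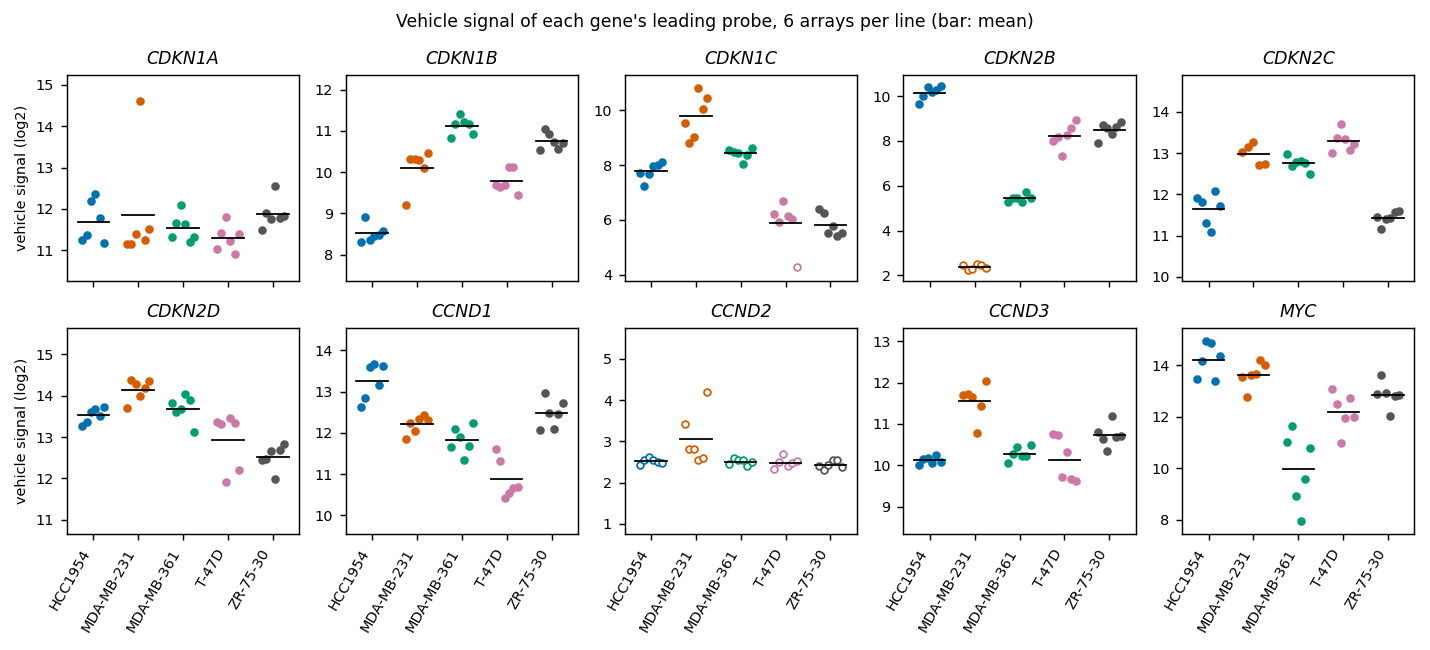
Vehicle signal (log2, vertical axis) of each gene's leading probe by cell line (horizontal axis), with 1 point per array in time order, a bar at the mean of the 6 arrays, and open points where the probe was not well above background. CDKN2B is open on all 6 MDA-MB-231 arrays, CCND2 is open on all 30 arrays, and 1 MDA-MB-231 array of CDKN1A lies at 14.61.

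The genes around the members were read from 4 lists. Of 18 other genes of the G1/S step and the retinoblastoma pathway, 2 fell at 3 to 24 h against the first hour and 0 rose, where 2.44% of all probes were called. They were CCNE2, a cyclin of the next kinase step (-0.37, SE 0.08, limma, adjusted p = 0.0348), and RBL1, a relative of the retinoblastoma protein (-0.26, SE 0.06, limma, adjusted p = 0.0352). The list's median was -0.04 and that of all probes was 0.00. Of 12 partners and antagonists of MYC 0 passed (median 0.04), and of 12 known MYC targets 0 passed (median -0.04), with 2.44% of all probes called. Of 6 genes of the BMP response 4 rose: ID2 by 0.95 (limma, adjusted p = 0.00107), ID1 by 0.85 (limma, adjusted p = 0.0314), ID3 by 0.77 (limma, adjusted p = 0.0132) and SMAD6 by 0.53 (limma, adjusted p = 0.0159).

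At 3 to 24 h the ratio of ID1, which BMP signalling is known to raise directly, was above 0 on all 20 arrays, with a median of 0.93 and a highest value of 2.62. The median MYC ratio on the same arrays was -0.35 and that of CDKN1A was 0.30. Between lines at 3 to 24 h, where 5.37% of probes were called, 4 of the 6 BMP response genes passed, with ranges of 1.35 for ID3 (limma, adjusted p = 0.0336), 1.17 for ID2 (limma, adjusted p = 0.0250) and 0.93 for SMAD6 (limma, adjusted p = 0.0215) as the widest. RBL1 (0.62, limma, adjusted p = 0.0445) passed among the G1/S genes, MGA (0.62, limma, adjusted p = 0.0376) among the MYC partners, and DKC1 (0.53, limma, adjusted p = 0.0265) and NOLC1 (0.39, limma, adjusted p = 0.0343) among the MYC targets. In the mean over lines, in MDA-MB-231 against the others, and in vehicle at 12 to 24 h against the first hour, 0 genes of the 4 lists passed. In vehicle between lines 16 of 18, 12 of 12, 12 of 12 and 6 of 6 passed, where 73.2% of all 40997 probes were called. Among probes with a vehicle signal well above background, 22203 of 24305 were called, so such counts are usual.

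Across the 30 arrays the ratios most like those of MYC belonged to MYO6 and C10orf137 (Pearson r 0.94 each) and GCC2 (0.93), out of 20660 probes well above background. For CDKN1A they were RBM42 (0.92), COG7 (0.91) and CTSA (0.91), for CCND1 USP22 (0.89) and MAPKAPK2 (0.88), for CCND3 CTBP1 (0.95), RNF185 (0.91) and HSP90AB1 (0.90), for CDKN2D BTN2A1 (0.94), TCFL5 (0.92) and HPS4 (0.92), and for CDKN2C HCG8 and ITCH (0.88 each, over 29 arrays). CDKN1B reached 0.78 with KCTD6, CDKN2B 0.72 with C9orf167 and CDKN1C 0.66 with HMBOX1 as its nearest named gene. These values share the array, its dyes and the lines, and they describe likeness across arrays only.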

How the data were processed

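Gene expression was measured on 30 2-colour arrays, 1 for each of 5 cell lines at 6 time points. The authors deposited Feature Extraction output (version 9.5.1.1 in the file headers, protocol GE2-v5_95_Feb07, build hg18), which holds, per spot, background-subtracted and dye-normalised processed intensity values of each channel and the log10 ratio of red over green. The deposited p-value of each spot's ratio, from the scanner software's error model, was not used. The authors' methods name an earlier software version. They also deposited a matrix of log2 ratio values per array. No column was left out as belonging to another series.

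The log10 ratio was converted to log2, control spots and outlier flags were left out, replicate spots were averaged by probe, and array medians were set to 0. Vehicle levels were log2 green processed signals after Aquantile normalisation. All probes were fitted with limma 3.58.1 in R 4.3.3, with Benjamini-Hochberg adjustment over all of them and a threshold of 0.05. The comparisons were the mean over lines (line means, n = 5), 3 to 24 h against 30 min and 1 h (line as block), lines at 3 to 24 h and MDA-MB-231 against the others (time as block), vehicle between lines (time as block) and vehicle at 12 and 24 h against 30 min and 1 h (line as block). A line counted as below background for a probe where no array was well above it by the scanner's test. Bounds used, per array, the higher of the probe's own signal and the lowest signal of a probe well above background, and are open to dye bias. Arrays of a line at different times stand in as its replicates, so p-values cover the spread between these arrays.

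Alternatives were normexp background correction (offset 50) with loess or median scaling, the deposited matrix, spots above background alone, slide as a random block (consensus correlation from every 10th probe), scan batch as a term, the first of 2 scan batches alone, 30 min alone as the reference, no time block, 75th percentile scaling, leaving out ZR-75-30 at 6 h, and leaving out each line. The arrays came from 13 slides. Leaving out MDA-MB-231 at 6 h, T-47D at 3 h and T-47D at 24 h was chosen after seeing the data. The scripts were tested on simulated data. Each gene is described by its leading probe, with its other probes where they were above background or differed in sign. The gene lists were the G1/S and retinoblastoma pathway, MYC partners, MYC targets and the BMP response, with ERBB2, ESR1, GATA3 and VIM as line markers. From the gene lists, up to 3 genes past the threshold are named per direction and comparison, by size, and likeness is given by the highest Pearson r. Some of the likeness results are unnamed transcripts and are left out, as is CCND2, which was at background. The members and lists were chosen with earlier results of these data known. The number of arrays limits the precision. Promoter sequences are from RefSeq (GRCh38.p14).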

Additional observations from a re-analysis of the deposited data

Results flagged for a closer look

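Within each line the 6 time points of every leading probe above background were searched for a value far from the rest, for ratios and for vehicle levels, and 4 of 84 sets held one. Chance alone gives about 1 in 20. The CDKN1A vehicle signal in MDA-MB-231 at 6 h was 14.61, against 11.14 to 11.50 at the other times. The CDKN1B vehicle signal in MDA-MB-231 at 30 min was 9.21, against 10.09 to 10.46. The CDKN1C ratio in ZR-75-30 at 6 h was 0.63, against -0.07 to 0.07. The CDKN2C ratio in T-47D at 1 h was -0.55, against -0.19 to -0.06. The arrays of MDA-MB-231 at 30 min and 6 h and of ZR-75-30 at 6 h were scanned in the second batch, and the part of the batch in these values was not tested.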

How the results depend on the processing

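The drop of MYC at 3 to 24 h kept its sign under all 15 alternatives tried. The number of member probes called in that comparison was 1, and became 0 with normexp and median scaling, with scan batch as a term, with 30 min alone as the reference and in the first scan batch alone, 2 with dim spots removed and without the 3 arrays that stand apart, and 0 to 1 when a line was left out. With 30 min alone as the reference MYC was at -0.45 (limma, adjusted p = 0.0704) and with normexp and median scaling at -0.66 (limma, adjusted p = 0.354). Between lines at 3 to 24 h the count of 0 became 2 with normexp and loess, 7 with normexp and median scaling, 1 with the deposited matrix, 3 with dim spots removed, 1 with slide as a random block, 1 with scan batch as a term, 1 in the first scan batch alone, 2 without the 3 arrays, and 0 to 1 when a line was left out. Over all probes these settings, in the same order, called 3562, 13205, 1913, 2970 of 23222, 4073, 3415, 4137 and 2117. Leaving out a line called 164 to 3274, and the main setting called 2201. Under normexp and median scaling the mean over lines called 3 member probes, CDKN1A at 0.41, CDKN2D at 0.35 and CDKN1B at 0.27, in place of 0. MDA-MB-231 against the others called 4 in place of 0 there, and the CDKN2D difference turned from -0.14 to 0.53 (limma, adjusted p = 0.0233). That setting called 3146, 2, 13205 and 17610 of all probes in the 4 ratio comparisons, where the main setting called 4, 1002, 2201 and 3. The cause was not tested. The member 2-fold changes numbered 6, and 1 with normexp and loess, 20 with normexp and median scaling, 2 with dim spots removed and 0 at 3-fold. Over all probes the calls at 3 to 24 h against the first hour fell to 67 with scan batch as a term and to 3 in the first scan batch alone. With 30 min alone as the reference they were 234, and leaving out a line gave 3 to 888. They rose to 2164 of 25536 with dim spots removed and to 1464 without the 3 arrays. Of the called probes 58.6% were upward, 69.0% with the deposited matrix and 33.3% against 30 min alone. The number of member probes whose vehicle level differed between lines stayed between 12 and 19. Over all probes these calls ran from 22203 of 24305 with dim spots removed to 31114 of 40997 with 75th percentile scaling. The MYC range between lines passed with normexp and median scaling (1.02, limma, adjusted p = 0.0378). Signals near background limit CCND2, CDKN2B in MDA-MB-231 and the dimmer probes. No replicate numbers pair the arrays, since each line and time has 1 array, and line or time served as the block.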
